A study of Mus musculus with 16 samples.

Results

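Germ cells of the fetal mouse testis at E13.5, counted in days of embryonic development, were compared with germ cells collected at E11.5, when the gonads of males and females have not yet diverged. The members were chosen by their labels, as the 2 wild-type E13.5 male libraries and the 2 wild-type E11.5 libraries, 4 of the 16 libraries in the series. All were described as primordial germ cells (PGCs), the precursors of sperm and eggs, of genotype Dppa3(EGFP/+), from embryos of an ICR:C57BL/6=1:1 background obtained by crossing wild-type females with Dppa3-EGFP mice. Dppa3, also called stella, is a PGC gene, and the EGFP reporter at this locus was therefore carried by E11.5 and E13.5 cells alike. The other 4 wild-type libraries, 2 at E10.5 and 2 from E13.5 females of the same genotype, entered the fit, and the 8 libraries of a Prdm1 deletion experiment were not used. Sorting by EYFP and by SSEA-1 antibody are both described in the protocols, neither of them for the wild-type cells by name. The labels give no sex for the E11.5 libraries, so age and the sex of the embryos cannot be told apart for genes that depend on sex. Nothing in them ties a replicate to its own embryo or litter. The p-values therefore reflect the spread between the samples at hand, and that spread may be purely technical.

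In the mouse, PGCs reach the genital ridges around midgestation, erase most of their DNA methylation and go on dividing for a short time. In the testis, signals from somatic cells keep them out of meiosis and they stop dividing as prospermatogonia, while in the ovary BMP and retinoic acid signalling lead them into meiotic prophase. Nodal, a ligand of the TGF-β family that acts through activin receptors and SMAD2 and SMAD3, is known to be active for a short time in male germ cells at this stage, and LEFTY1 and LEFTY2 are secreted inhibitors that Nodal signalling itself induces.

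RNA was measured by 3′ sequencing, in which each transcript gives reads near its end whatever its length. Values are in RPM, a unit in which the reads of each library are scaled to the same total. The steps between low values place the depth at about 1485000 to 3512000 reads in the 4 libraries compared, where 3 reads correspond to 0.854 to 2.02 RPM, a floor that covers counting error only. Differences below are between mean log2(RPM + 1) values, with the standard error (SE) of limma, and understate the change of genes with low values. All 10 germ cell identity markers were detected in each of the 4 libraries, the lowest being Nanos3 at 22.9 and 22.2 RPM at E11.5 and 17.4 and 19.7 RPM in males. Dppa3, at 3145 and 3227 RPM at E11.5, reached 6401 and 6164 RPM in males. Prdm1, the gene named in the series title, stood at 66.7 and 57.2 RPM at E11.5 and at 65.1 and 58.8 RPM in males (log2 difference 0.0027 ± 0.16, adjusted p = 0.991 by limma).

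Of 10749 genes tested, 4105 were called at an adjusted p under 0.05, which is 38.2% of them. The genes higher in males numbered 2392 (22.3%) and those lower 1713 (15.9%). At least 2-fold differences were found in 999 genes that rose and 805 that fell. Over all tested genes the median difference was 0.11 on the log2 scale, and 0.03 after median-ratio scaling, under which 1996 genes rose and 2002 fell. Without male replicate 2, 1574 genes rose and 1279 fell. Because whole cell samples were measured in bulk, fewer cells of a type and less RNA per cell cannot be told apart in any of these differences.

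The largest rises were genes near or at 0 in PGCs at E11.5. Hesx1, a homeobox repressor of the anterior neural plate and pituitary (chr14:26994419-27002329, GRCm38), had no read in either E11.5 library and stood at 123 and 116 RPM in males. This was at least 198-fold higher than the floor of 3 reads over both E11.5 libraries. Bnc2, which encodes the zinc finger protein basonuclin 2, stood at 1.35 and 0.854 RPM at E11.5 and at 95.9 and 95.1 RPM in males, a log2 difference of 5.53 ± 0.36 (adjusted p = 7.09e-13, limma). Pmaip1, which encodes the BH3-only apoptosis protein NOXA, stood at 1.35 and 1.71 RPM and then at 100.2 and 111 RPM (5.40 ± 0.43, adjusted p = 7.63e-11 by limma). In all 3 genes both male libraries lay far above both E11.5 libraries.

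Transcripts of Egr4, an immediate early zinc finger gene, were absent from both E11.5 libraries and read 53.1 and 35.9 RPM in males, at least 74.1-fold above the floor. Fbxo41, an F-box gene, went from 0 in both E11.5 libraries to 23.7 and 26.8 RPM, at least 42.0-fold above the floor. Plk5, a polo-like kinase family member, did so to 26.7 and 32.8 RPM (at least 49.5-fold). These 3 genes were not detected at the depth of the E11.5 libraries. Pou6f1, a POU homeobox gene, rose from 0.673 and 1.14 to 45.8 and 47.9 RPM, and Rasd2, a small GTPase gene, from 1.35 and 1.14 to 49.4 and 52.1 RPM. Mgst2, a microsomal glutathione transferase gene, rose from 1.35 and 0.569 to 36.1 and 38.4 RPM, and the keratin gene Krt17 from 0 and 0.285 to 18.4 and 23.2 RPM.

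The largest falls included an imprinted gene, X-linked homeobox genes and metallothioneins. Phlda2, an imprinted inhibitor of placental growth (chr7:143501545-143503145), stood at 149.5 and 176 RPM at E11.5 and at 5.34 and 4.93 RPM in males, 31.7-fold lower on the mean RPM (-4.73 ± 0.13, adjusted p = 6.83e-22 by limma). Rhox6 and Rhox9, reproductive homeobox genes that lie near each other on chromosome X, fell from 401 and 428 to 12.4 and 17.3 RPM and from 661 and 799 to 44.4 and 50.4 RPM. Both genes remained above the floor in both male libraries.

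The metallothionein genes Mt1 and Mt2, whose products bind zinc and copper, fell together. Mt2 fell from 299 and 255 to 12.7 and 11.97 RPM (-4.38 ± 0.14) and Mt1 from 72.1 and 79.1 to 3.34 and 4.23 RPM (-4.01 ± 0.24). How reads shared by such near-identical genes were counted is not given in the sources used here, and the same holds for Rhox6 with Rhox9, Lefty1 with Lefty2, and Tuba3a with Tuba3b. Msx2, a homeobox target of BMP signalling, fell from 50.5 and 48.1 to 1.34 and 0.704 RPM. Tmsb4x, which encodes the actin-binding peptide thymosin β4, fell from 78.8 and 116 to 3.34 and 2.47 RPM, and Lck, a kinase best known from T cells, from 57.2 and 48.1 to 2.004 and 1.41 RPM. Epithelial genes were in the same set. The desmosome gene Dsp fell from 52.5 and 61.8 to 1.67 and 3.17 RPM, the claudin gene Cldn7 from 31.7 and 37.0 to 0.668 and 3.17 RPM, and Elf3, an epithelial ETS factor gene, from 23.6 and 24.8 to 2.004 and 0.352 RPM. Porcn, the acyltransferase gene needed for Wnt secretion, fell from 129 and 140.4 to 7.68 and 13.03 RPM.

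**Figure D1:**
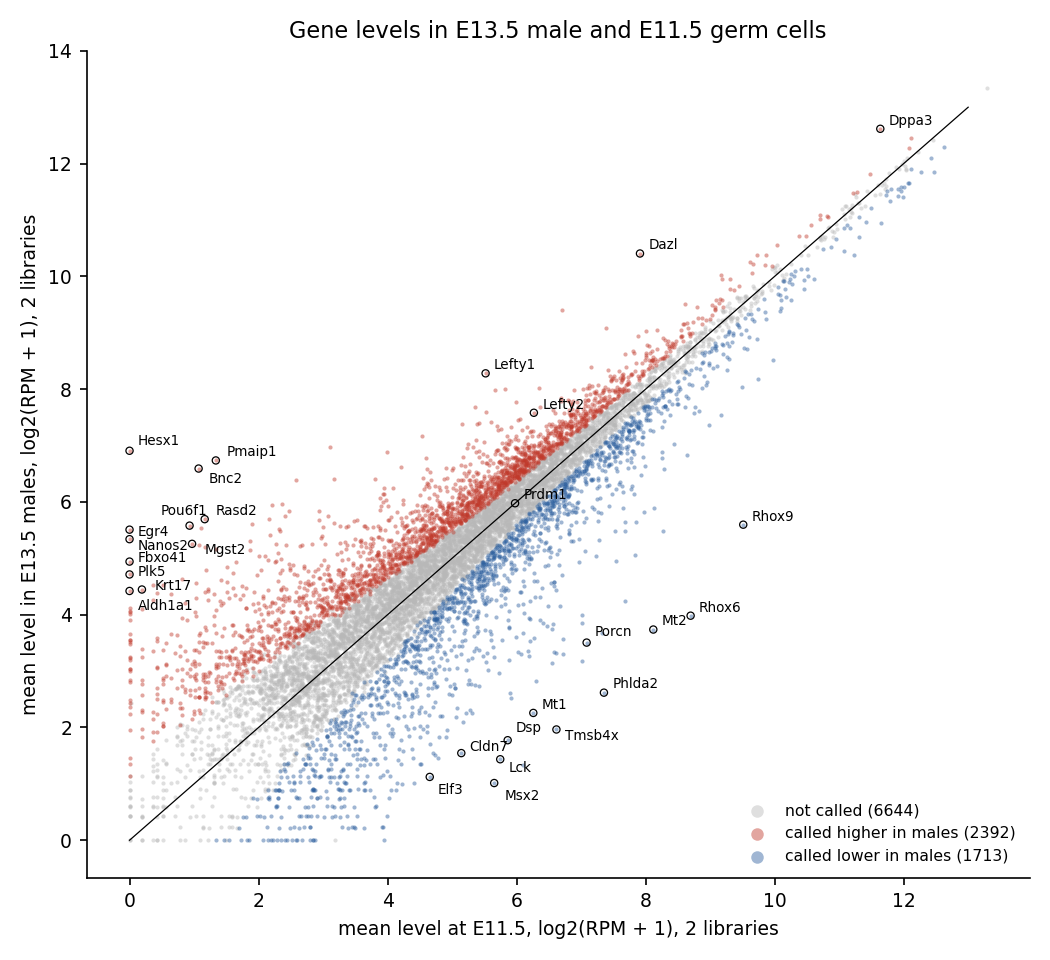
Mean level of each of the 10749 tested genes at E11.5 (x axis) and in E13.5 males (y axis), both as log2(RPM + 1) over 2 libraries, with genes called higher in males in red, called lower in blue and the rest in grey. Hesx1, Egr4, Nanos2, Fbxo41, Plk5 and Aldh1a1 lie on the left edge because they had no read at E11.5, and Prdm1 lies on the diagonal.

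Genes of the Nodal pathway were examined from the ligand to its targets. Of 24 listed genes 20 were tested, of which 10 rose and 4 fell, against 22.3% and 15.9% of all genes, with a median log2 difference of 0.39 against 0.11 for all genes. Genes were tested if they had at least 5 RPM in at least 2 libraries. Hesx1 and Otx2 passed this filter through the male libraries only, so they could be counted only as rises. Without male replicate 2, 6 rose and 2 fell. The ligand gene Nodal stood at 13.47 and 19.07 RPM at E11.5 and at 28.4 and 29.2 RPM in males (0.81 ± 0.30, adjusted p = 0.0373 by limma), a call near the threshold in which the groups did not overlap. Tdgf1, which encodes the coreceptor CRIPTO, stood at 19.5 and 20.5 RPM at E11.5 and at 15.4 and 19.02 RPM in males without passing the test (adjusted p = 0.682, limma). Gdf3, a related TGF-β family ligand gene, fell from 257 and 252 to 173 and 175 RPM (-0.55 ± 0.11).

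Of the receptors Acvr1b and Acvr2b fell and Acvr2a was not called, and of the SMADs Smad3 and Smad4 rose. The type I receptor gene Acvr1b fell from 51.2 and 40.4 to 34.7 and 25.4 RPM and the type II receptor gene Acvr2b from 47.8 and 56.4 to 39.1 and 28.5 RPM. Smad3, a signal transducer, rose from 16.2 and 15.4 to 24.4 and 31.7 RPM. Smad4, the shared partner of the SMADs that receptors activate, rose from 55.2 and 58.1 to 86.5 and 101 RPM. Smad2 stood at 82.2 and 100.2 RPM at E11.5 and at 108 and 109.5 RPM in males and was not called (adjusted p = 0.13, limma). Foxh1, the forkhead factor that guides SMADs to many Nodal targets, fell from 16.2 and 17.4 to 5.68 and 7.40 RPM (-1.25 ± 0.32, adjusted p = 0.00261 by limma).

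Among genes known as Nodal targets, Lefty1, Lefty2 and Otx2 rose, while the feedback inhibitor gene Smad7 was not called (0.06 ± 0.28, adjusted p = 0.879 by limma) and Cer1 was below the filter. Lefty1 (chr1:180935022-180938401) read 46.5 and 43.3 RPM at E11.5 and 304 and 316 RPM in males, a log2 difference of 2.76 ± 0.25 (adjusted p = 7.53e-10, limma). Lefty2, its neighbour on chromosome 1 (chr1:180893108-180899107), read 83.5 and 68.6 RPM at E11.5 and 195 and 186 RPM in males (1.32 ± 0.24, adjusted p = 6.22e-05 by limma). In both genes the male libraries lay close together and above both E11.5 libraries. Otx2, a homeobox gene of the epiblast and forebrain, rose from 1.35 and 1.71 to 34.7 and 34.9 RPM (3.83 ± 0.48). At E10.5, Lefty1 was at 12.6 and 22.4 RPM and Lefty2 at 35.2 and 22.1 RPM, so both were detected at each age, while Hesx1 stood at 0 and 0 RPM at E10.5.

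In E13.5 females the same targets were near 0. The 2 female libraries held 0.836 and 1.10 RPM of Lefty1, 0.627 and 0.548 RPM of Lefty2 and 1.05 and 0.274 RPM of Hesx1. Tdgf1 was listed at 0 in both female libraries, and Nodal at 4.81 and 7.13 RPM. Males exceeded females by 7.31 ± 0.25 for Lefty1 and 6.91 ± 0.24 for Lefty2 on the log2 scale (adjusted p = 2.33e-19 and 2.33e-19 by limma). Over all genes, 37.6% were called between E13.5 males and females, 16.4% higher and 21.2% lower in males. This comparison shares the male libraries with the comparison by age. Whether males and females already differed at E11.5 was not measured, so it does not show when a difference arose. Besides Lefty1, Lefty2, Hesx1, Pmaip1 and Otx2, the 10 genes highest in males against females included Nanos2, Mgst2, Krt17 and the secreted glycoprotein gene Cthrc1, which stood at 66.5 and 56.0 RPM in males, 0.836 and 1.92 RPM in females and 4.04 and 4.27 RPM at E11.5.

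**Figure D2:**
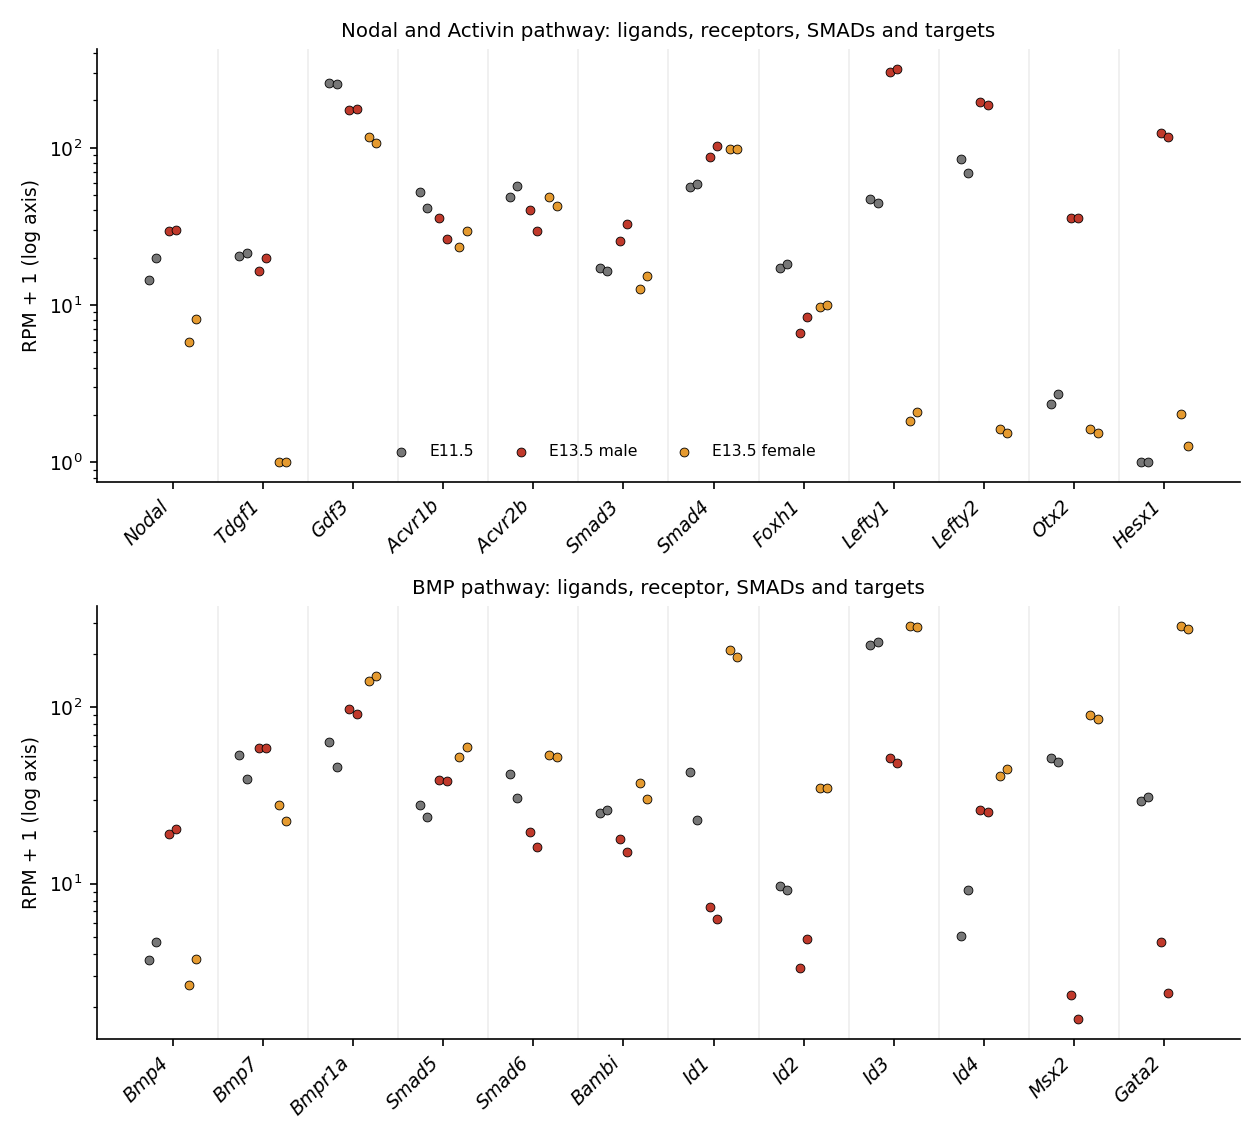
RPM + 1 on a log axis in each library at E11.5 (grey), in E13.5 males (red) and in E13.5 females (orange), for genes of the Nodal and Activin pathway (top) and of the BMP pathway (bottom). Lefty1, Lefty2, Otx2 and Hesx1 are highest in both male libraries, while Id1, Id2, Id3, Msx2 and Gata2 are lowest in them.

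Promoters were read from the RefSeq tables for GRCm38.p6, as 250 bases before to 50 bases after each start of transcription, for Hesx1 and for Nanos2, a male fate gene described below. They are shown because both genes went from no read at E11.5 to at least 37.1 RPM in both male libraries. The Hesx1 start in the table lies inside the span given above for the gene. Capitals mark TGTNNATT, a pattern of the FOXH1 type, searched on both strands and read on the minus strand in Nanos2. TGTNNATT was found in 12.2% of all 32851 promoters, in 8.30% of the tested genes with a promoter sequence and in 9.39% of those that rose. It was present for 3 of 11 Nodal pathway genes with a sequence, Hesx1, Otx2 and Tdgf1. It is 1 of 14 patterns searched after the levels were known. The E-box letters CACGTG are described with the germline genes. For SMAD proteins the palindrome GTCTAGAC and the CAGA-type element CAGACNC were searched. A metal response core was written as TGCGCNC, and the cell cycle patterns as TTTGGCGC for E2F factors and TTTGAA for the element called CHR. Core promoter patterns were TATAAA for the TATA box, GGGCGG for the GC box and the letters of the CCAAT box. The rest were GCGGGGGCG for EGR factors, GCCNNNGGC for TFAP2 factors, ACCGGAAGT for ETS factors and ACAATGT for DMRT factors. Matches to different patterns may overlap, and a match is a description of the letters only.
Hesx1 (chr14:27000112-27000411, plus strand): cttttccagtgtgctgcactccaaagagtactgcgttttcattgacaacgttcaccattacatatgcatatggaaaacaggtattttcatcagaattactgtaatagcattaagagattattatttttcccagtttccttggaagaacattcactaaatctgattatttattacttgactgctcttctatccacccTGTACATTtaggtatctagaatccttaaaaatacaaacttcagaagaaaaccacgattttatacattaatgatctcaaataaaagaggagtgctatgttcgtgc
Nanos2 (chr7:18987274-18987573, plus strand): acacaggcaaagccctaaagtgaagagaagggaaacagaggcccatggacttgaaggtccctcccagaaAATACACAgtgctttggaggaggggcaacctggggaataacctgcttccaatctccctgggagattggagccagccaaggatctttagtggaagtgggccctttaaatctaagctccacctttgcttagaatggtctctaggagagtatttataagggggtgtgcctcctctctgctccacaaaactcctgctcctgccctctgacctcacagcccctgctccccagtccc
The match begins at -54 from the start of transcription in Hesx1 and at -181 in Nanos2.

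Genes of male germ cell fate rose or were not called. Of 13 tested, 8 rose and 0 fell, against 22.3% and 15.9% of all genes, with a median difference of 1.69. Against females, 6 of the 13 were higher in males, 0 lower and 7 not called, where 16.4% and 21.2% of all genes were higher and lower. Of the 8 rises, Tdrd1, Tex14, Piwil4 and Dnmt3b were not called between the sexes. Nanos2, an RNA-binding repressor of meiosis that acts in testicular germ cells (chr7:18987524-18988962), had no read at E11.5 and 37.1 and 41.9 RPM in males, at least 65.8-fold above the floor (adjusted p = 3.29e-09 by limma). Females held 0.209 and 0 RPM. Nanos2 passed the filter of 5 RPM through the male libraries only, so in both sets of counts it could stand only as higher in males. Tdrd5, a tudor domain gene of germ granules, rose from 39.7 and 33.6 to 127 and 119.7 RPM and was at 41.8 and 58.1 RPM in females. The receptor tyrosine kinase gene Ret rose from 0.673 and 0.854 to 22.04 and 25.7 RPM, and Lhx1, a LIM homeobox gene, from 22.9 and 24.8 to 77.1 and 80.6 RPM (1.69 ± 0.26).

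Tex14, a gene of intercellular bridges between germ cells, rose from 48.5 and 47.0 to 174 and 165 RPM, and the 188 and 185 RPM of females was not called different (male minus female -0.13 ± 0.14, adjusted p = 0.469 by limma). Nanos3, which protects migrating PGCs, and Dnd1, its partner in RNA binding, were not called. Dnd1 stood at 343 and 314 RPM at E11.5 and at 332 and 268 RPM in males. Dnmt3l, a cofactor of de novo DNA methylation that becomes abundant later in prospermatogonia, had at most 1 read in any of the 4 libraries. The methyltransferase gene Dnmt3b, at 2.69 and 6.55 RPM at E11.5 and 11.7 and 10.6 RPM in males, was called near the threshold (adjusted p = 0.0448, limma), and Dnmt3a was not called (0.0091 ± 0.22).

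Genes of the FGF response fell in part. Fibroblast growth factors from somatic cells act on germ cells through FGF receptors and the MAP kinase pathway, whose output includes Etv, Spry and Dusp6 transcripts. Of 11 tested genes 6 fell and 1 rose, against 15.9% and 22.3% of all genes, with a median of -0.75. The receptor gene Fgfr1 fell from 98.3 and 96.5 to 49.8 and 45.4 RPM (-1.02 ± 0.15, adjusted p = 2.4e-06 by limma). The ETS factor gene Etv5 fell from 366 and 313 to 212 and 214 RPM, Etv4 from 39.7 and 49.3 to 26.4 and 21.8 RPM, and the phosphatase gene Dusp6 from 59.9 and 59.5 to 30.7 and 20.8 RPM. The feedback inhibitor gene Spry4 fell from 35.0 and 16.8 to 7.01 and 6.69 RPM. Fgfr2 was the rise, at 34.3 and 20.2 RPM and then 40.7 and 43.7 RPM, and no member of the list was higher with median-ratio scaling or without E11.5 replicate 2, male replicate 1 or male replicate 2. Against females, 4 of the 11 were higher and 2 lower in males (16.4% and 21.2% of all genes).

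Of 16 tested genes of the BMP pathway, 7 fell and 4 rose since E11.5, against 15.9% and 22.3% of all genes. In males 11 were lower and 2 higher than in females, against 21.2% and 16.4% of all genes. Id1, Id2, Id3, Msx2 and Gata2 fell in males and stood higher in females. The ID genes encode inhibitors of basic helix-loop-helix factors, and several are known as direct targets of BMP signals. Id3 fell from 226 and 235 RPM to 50.4 and 47.5 RPM (-2.21 ± 0.11, adjusted p = 2.44e-15 by limma), against 288 and 283 RPM in females. Id1 fell from 41.8 and 21.9 to 6.35 and 5.28 RPM, against 210.1 and 191 RPM in females, and Id2 from 8.76 and 8.26 to 2.34 and 3.87 RPM. Gata2, a zinc finger factor gene, fell from 28.3 and 29.9 to 3.67 and 1.41 RPM and read 288 and 277 RPM in females, a male minus female difference of -6.40 ± 0.24.

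The rest of this pathway was mixed. The ligand gene Bmp4 rose from 2.69 and 3.70 to 18.04 and 19.4 RPM, the type I receptor gene Bmpr1a from 62.6 and 44.7 to 97.2 and 90.9 RPM, and Id4 from 4.04 and 8.26 to 25.0 and 24.7 RPM. The inhibitory Smad6 fell from 41.1 and 29.6 to 18.7 and 15.1 RPM. Sct, the gene of the gut hormone secretin, and Dlx3, a homeobox gene, were also among the 10 lowest in males against females. Sct stood at 12.1 and 10.8 RPM at E11.5, 0.334 and 0 RPM in males and 68.2 and 61.4 RPM in females.

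Notch and Wnt pathway genes were called in both directions. Notch3 rose from 2.69 and 4.27 to 51.1 and 50.7 RPM and Notch1 fell from 13.47 and 13.1 to 1.67 and 1.41 RPM, so these 2 receptor genes moved in opposite directions. The Notch target Hey1 fell from 185 and 171 to 77.5 and 62.3 RPM, and Hes6 rose from 21.6 and 20.2 to 63.8 and 58.1 RPM. Of 11 Notch genes 4 rose and 2 fell, and 2 rose without E11.5 replicate 2 or without male replicate 1. Of 18 Wnt genes 3 rose and 3 fell. With 22.3% of all genes rising and 15.9% falling, the Wnt counts are near the background, as are the Notch falls. Sp5, a direct Wnt target, rose from 1.35 and 0.854 to 35.4 and 38.0 RPM and the factor gene Tcf7 from 27.6 and 30.2 to 95.2 and 96.8 RPM, while Ror2, a receptor for noncanonical Wnt ligands, fell from 41.1 and 45.8 to 7.35 and 9.86 RPM.

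Most germline genes rose. Of 28 tested genes of the germline and piRNA pathway, 24 rose and 0 fell, against 22.3% and 15.9% of all genes, with a median log2 difference of 1.32. Dazl, whose RNA-binding product is needed for germ cell differentiation (chr17:50279393-50293620), stood at 259 and 221 RPM at E11.5 and at 1391 and 1319.9 RPM in males (2.50 ± 0.10, adjusted p = 1.07e-17 by limma). Ddx4, the RNA helicase also called VASA, rose from 203 and 130.1 to 554 and 524 RPM (1.73 ± 0.13). Mael, a piRNA pathway gene, rose from 45.8 and 53.5 to 252 and 252 RPM (2.33 ± 0.14), and the testis kinase gene Stk31 from 53.2 and 57.8 to 258 and 252 RPM (2.18 ± 0.13). For all 4 genes, both male libraries lay above both E11.5 libraries.

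The PIWI proteins bind piRNAs, small RNAs that guide the silencing of transposons. Piwil2 rose from 62.0 and 43.3 to 102 and 108 RPM and Piwil4 from 0.673 and 1.42 to 24.7 and 12.7 RPM. Their tudor partners rose as well, Tdrd1 from 4.04 and 2.85 to 31.7 and 29.2 RPM and Tdrd7 from 1.35 and 3.99 to 45.8 and 31.7 RPM. The helicase gene Mov10l1, which acts in piRNA formation, rose from 31.7 and 32.2 to 84.8 and 73.6 RPM. The 4 tested genes without a call were Tdrd9, Tdrd12, Pld6 and Dmrtb1. Against females, 11 of the 28 were lower and 1 higher in males (21.2% and 16.4% of all genes), with a median male minus female difference of -0.41. The 1 higher gene was Tdrd5, with a male minus female difference of 1.31 ± 0.18.

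Promoters of Mael and Ddx4, and of the meiotic genes Hormad1 and Sycp1, are printed because CACGTG, the palindromic E-box letters shown in capitals, occurs in 9 of the 20 risen germline genes with a sequence. That is 45% of them, against 14.2% of the 1715 genes that rose and 12.7% of the 7533 tested genes with a sequence. Counting tested germline genes whether they rose or not, 11 of 24 hold it (45.8%). Since 20 of these 24 genes rose, these shares cannot tell whether the letters go with the rise. Among all 32851 promoters 7.15% hold it. Of the 15 risen meiotic genes with a sequence 7 hold the letters (46.7%), against 8 of the 25 tested meiotic genes (32%). Hormad1 is counted in both lists. The pattern holds a CpG, and the base composition of the promoters was not matched in these shares. The search and its limits were as for Hesx1 and Nanos2.
Mael (chr1:166238695-166238994, minus strand): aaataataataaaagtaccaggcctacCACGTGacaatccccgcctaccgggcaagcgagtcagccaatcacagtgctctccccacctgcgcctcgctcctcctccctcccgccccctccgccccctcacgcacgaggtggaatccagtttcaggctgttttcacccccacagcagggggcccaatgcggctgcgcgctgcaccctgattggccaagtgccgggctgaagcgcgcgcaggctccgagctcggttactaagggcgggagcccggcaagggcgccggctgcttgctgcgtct
Ddx4 (chr13:112652261-112652560, minus strand): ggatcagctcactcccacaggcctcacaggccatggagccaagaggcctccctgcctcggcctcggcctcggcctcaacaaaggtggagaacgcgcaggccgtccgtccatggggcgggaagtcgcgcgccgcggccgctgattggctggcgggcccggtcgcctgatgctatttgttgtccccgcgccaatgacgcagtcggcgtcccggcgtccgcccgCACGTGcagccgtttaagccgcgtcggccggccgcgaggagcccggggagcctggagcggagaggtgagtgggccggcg
Sycp1 (chr3:102936051-102936350, minus strand): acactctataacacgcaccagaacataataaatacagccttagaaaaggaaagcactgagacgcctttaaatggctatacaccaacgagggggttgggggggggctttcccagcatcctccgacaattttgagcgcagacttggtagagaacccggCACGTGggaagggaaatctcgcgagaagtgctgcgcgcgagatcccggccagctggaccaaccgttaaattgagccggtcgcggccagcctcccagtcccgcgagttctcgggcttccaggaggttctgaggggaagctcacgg
Hormad1 (chr3:95559427-95559726, plus strand): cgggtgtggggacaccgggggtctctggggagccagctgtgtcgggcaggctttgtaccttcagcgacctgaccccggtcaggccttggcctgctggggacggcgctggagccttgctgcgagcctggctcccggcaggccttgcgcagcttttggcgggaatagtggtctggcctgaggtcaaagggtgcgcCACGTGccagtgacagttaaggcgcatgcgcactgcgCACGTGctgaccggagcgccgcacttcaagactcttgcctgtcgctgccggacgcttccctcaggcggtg
From the start of transcription the match begins at -223 in Mael, -29 in Ddx4 and -94 in Sycp1, and Hormad1 holds 2, at -57 and -20.

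**Figure D3:**
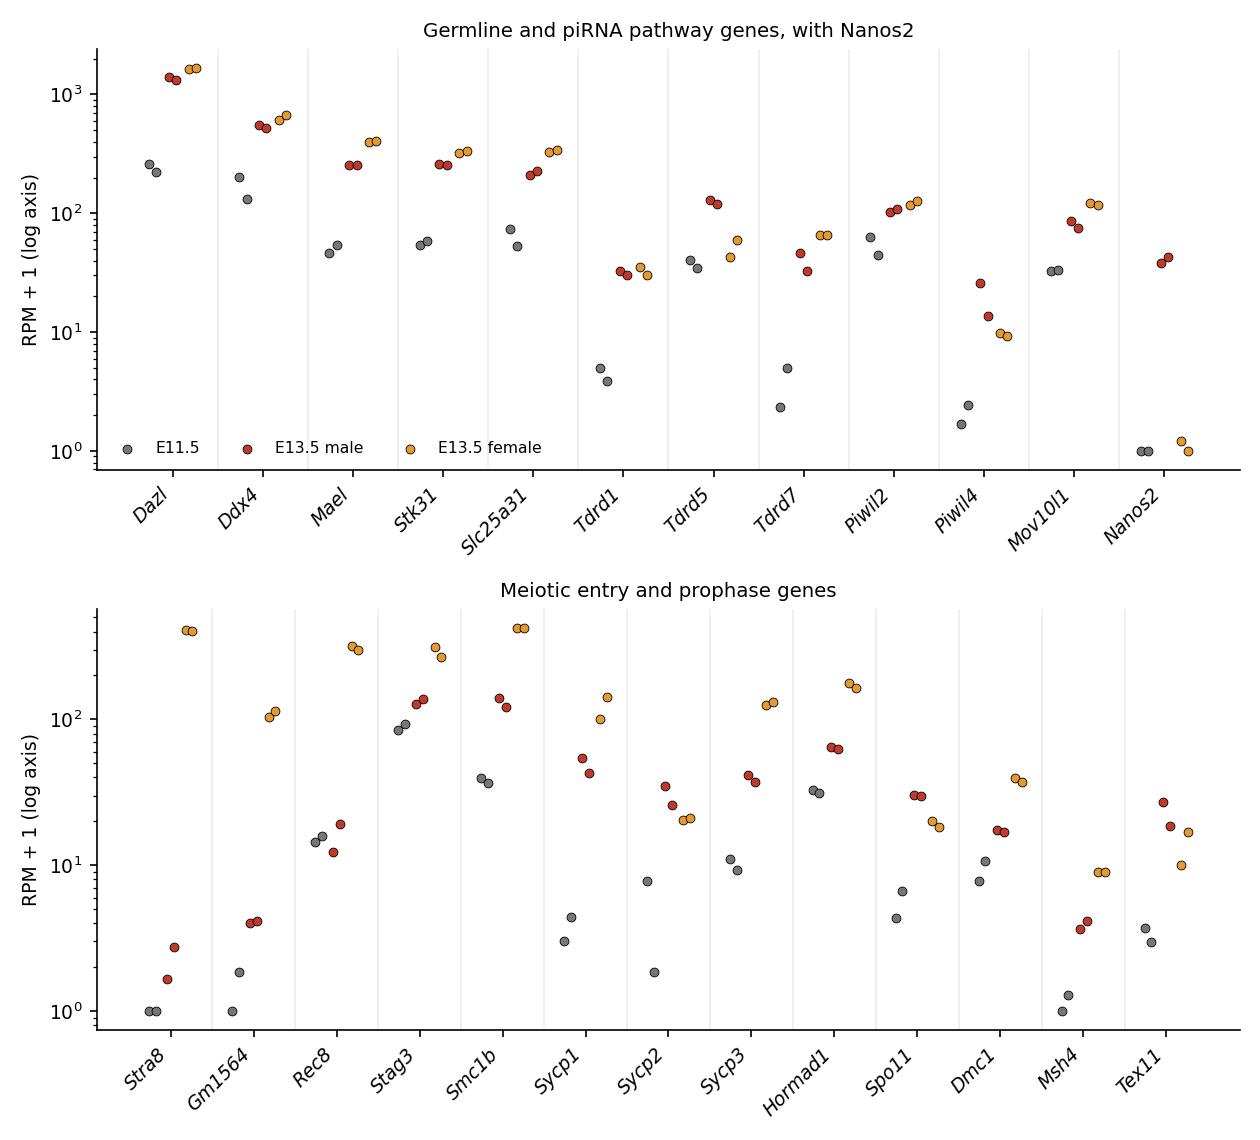
RPM + 1 on a log axis in each library at E11.5 (grey), in E13.5 males (red) and in E13.5 females (orange), for germline and piRNA genes with Nanos2 (top) and for meiotic genes (bottom). Nanos2 is at 37.1 and 41.9 RPM in males and at or near 0 in the other groups, and Stra8 and Rec8 are highest in females.

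Many meiotic genes rose in males, and most stood below female levels. Of 34 tested genes of meiotic entry and prophase, 19 rose and 5 fell since E11.5, against 22.3% and 15.9% of all genes, so the falls are near the background. Against females 27 were lower and 0 higher in males, where 21.2% and 16.4% of all genes were. Stra8, the retinoic acid target needed to enter meiosis, was absent at E11.5 and read 0.668 and 1.76 RPM in males, at the level of a few reads, against 412 and 403 RPM in females (male minus female -7.57 ± 0.43, adjusted p = 3.47e-14 by limma). Stra8 is counted among the 19 rises, but its male levels lay below the filter of 5 RPM, which its female levels passed. The meiotic cohesin gene Rec8 stood at 13.47 and 14.8 RPM at E11.5 and 11.4 and 18.3 RPM in males, with no call, against 318 and 299 RPM in females. For Rec8 the E11.5 and male libraries overlapped.

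Sycp1, Sycp3, Smc1b and Spo11 were among the meiotic genes that rose in males, while the synaptonemal complex genes Syce2 and Syce3 were not called. Sycp1, which forms the transverse filaments of the synaptonemal complex, rose from 2.02 and 3.42 to 53.8 and 41.6 RPM (3.72 ± 0.34, adjusted p = 8.53e-10 by limma). Sycp3, of the lateral elements, rose from 10.1 and 8.26 to 40.4 and 35.9 RPM, and the cohesin gene Smc1b from 38.4 and 35.6 to 139.6 and 121 RPM. Female levels were 98.9 and 141 RPM for Sycp1, 124 and 130.5 RPM for Sycp3 and 419.8 and 420.2 RPM for Smc1b. Spo11, which makes the breaks that start recombination, rose from 3.37 and 5.69 to 29.1 and 28.9 RPM and was at 19.2 and 17.3 RPM in females without a call between the sexes (adjusted p = 0.134, limma). Sycp2 and the X-linked Tex11 likewise rose in males without a call against females. The 5 falls were the BMP targets Msx2, Id1, Id2, Id3 and Gata2, which this list shares with the BMP list.

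Retinoic acid genes changed in both directions. Aldh1a1, which makes retinoic acid, had no read at E11.5 and 19.7 and 21.1 RPM in males, at least 34.0-fold above the floor. Aldh1a2 rose from 4.04 and 4.84 to 17.4 and 20.1 RPM. Crabp1, which binds retinoic acid in the cytoplasm, fell from 63.3 and 61.8 to 11.7 and 10.6 RPM (-2.39 ± 0.19) and was at 80.3 and 66.3 RPM in females. Cyp26b1, which degrades retinoic acid and is known from somatic cells of the testis, was below the filter at 3.34 and 0.352 RPM. In all, 5 of 10 tested genes rose and 3 fell, against 22.3% and 15.9% of all genes. Aldh1a1, with no read at E11.5, could not have been counted as a fall.

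Pluripotency genes fell in part and the named ones stayed well above the floor. Of 22 tested, 12 fell and 1 rose (2 without male replicate 1), with a median of -0.43, against 15.9% and 22.3% of all genes. Pou5f1, which encodes OCT4, fell from 745 and 752 to 525 and 531 RPM (-0.50 ± 0.09, adjusted p = 4.8e-05 by limma). Sox2 fell from 277 and 275 to 146 and 159.5 RPM (-0.85 ± 0.10) and Nanog from 156 and 128 to 77.1 and 87.7 RPM (-0.77 ± 0.14). Klf2 and Esrrb, transcription factor genes of naive pluripotency, fell from 86.2 and 80.3 to 20.7 and 21.5 RPM and from 209 and 225 to 117 and 90.2 RPM. Tdh, the threonine dehydrogenase gene that mouse pluripotent cells use, fell from 409 and 454 to 201 and 209.5 RPM. Dppa4 was the rise, from 368 and 381 to 515 and 462 RPM. Against females, 7 of the 22 were higher in males and 5 lower (16.4% and 21.2% of all genes), so the number lower is near the background. Nanog, at 56.2 and 49.1 RPM in females, and Pou5f1, at 386 and 364 RPM, were among the higher. Sox2, at 191 and 214 RPM in females, was among the lower.

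Early PGC genes were divided. Of 19 tested, 6 rose and 6 fell, against 22.3% and 15.9% of all genes. Tfap2c, the AP-2γ factor gene of PGC specification, fell from 197 and 175 to 36.1 and 23.9 RPM (-2.62 ± 0.15, adjusted p = 8.2e-14 by limma) and was at 99.3 and 115 RPM in females. Alpl, the alkaline phosphatase long used to stain PGCs, fell from 200.0 and 209.8 to 42.4 and 55.3 RPM, and the membrane protein gene Ifitm3 from 495 and 512 to 175 and 152 RPM. Kit, the receptor gene for stem cell factor, fell from 197 and 220.4 to 144 and 137 RPM. Prdm14, another specification gene, stood at 81.5 and 60.9 RPM at E11.5 and at 58.8 and 60.9 RPM in males without a call. Of the migration and surface genes, 8 of 22 fell and 2 rose, against 15.9% and 22.3% of all genes, the rises being Epcam, from 119 and 108 to 209.7 and 215 RPM, and the integrin gene Itga6. The intermediate filament gene Vim fell from 100.3 and 94.5 to 25.0 and 40.1 RPM.

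The cell cycle genes were examined because male germ cells are known to stop dividing at about this time. DNA replication genes were lower in part, 17 of 42 falling and 5 rising, against 15.9% and 22.3% of all genes, with a median of -0.24. Without male replicate 2, 11 fell, and 9 fell when the variance was fitted without a trend. Rises numbered 3 without E11.5 replicate 1, E11.5 replicate 2 or male replicate 2. Rrm2, a subunit of the enzyme that makes deoxynucleotides, fell from 74.8 and 62.3 to 27.1 and 16.6 RPM (-1.64 ± 0.20, adjusted p = 1.38e-07 by limma). The replication licensing gene Cdt1 fell from 229.7 and 214 to 121 and 116 RPM, the helicase cofactor gene Cdc45 from 201 and 216 to 126 and 118 RPM, and the sliding clamp gene Pcna from 879.5 and 974 to 704 and 622 RPM. Rpa2, of the single-strand binding complex, rose from 254 and 274 to 420.5 and 453 RPM.

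Mitosis genes did not fall as a group. Of 34 tested, 11 rose and 6 fell, where 22.3% and 15.9% of all genes did, so the falls are near the background. The median was 0.18 against 0.11 for all genes, and with median-ratio scaling 3 rose. Without 1 library the rises numbered 3 (E11.5 replicate 2), 4 (male replicate 1) or 5 (male replicate 2), and without E11.5 replicate 1 the falls numbered 3. Their summed level was 5860 and 5660 RPM at E11.5 and 5970 and 6080 RPM in males. Cenpf, a kinetochore gene, rose from 140.1 and 144 to 331 and 341 RPM (1.24 ± 0.11), while the centromeric histone gene Cenpa fell from 526 and 523 to 327 and 331 RPM (-0.67 ± 0.09). Aurkb, of the chromosomal passenger complex, fell from 135 and 150.04 to 96.5 and 100.01 RPM, a call lost when the variance was fitted without a trend. Mki67, the gene of the proliferation marker Ki-67, rose from 163 and 129 to 174 and 189.8 RPM (0.33 ± 0.13), and the topoisomerase gene Top2a from 463 and 473 to 541 and 597 RPM (0.28 ± 0.09).

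Transcripts of inhibitors and pocket proteins were called as higher for 6 of 14 tested genes, lower for 0 of 14, against 22.3% and 15.9% of all genes. Cdkn1c, the imprinted gene of the kinase inhibitor p57, rose from 8.76 and 13.1 to 37.7 and 39.1 RPM (1.75 ± 0.23, adjusted p = 9.86e-07 by limma). The retinoblastoma gene Rb1 rose from 27.6 and 21.9 to 61.1 and 48.2 RPM and the antiproliferative gene Btg1 from 27.6 and 26.8 to 76.8 and 69.7 RPM. Cdkn2b, the gene of the inhibitor p15, rose from 1.35 and 1.71 to 6.68 and 8.80 RPM. Cdkn1b, the gene of p27, which is known for this arrest, stood at 2.69 and 3.70 RPM at E11.5 and at 5.01 and 7.75 RPM in males without a call (adjusted p = 0.203, limma). Without male replicate 2, 3 of the 14 were higher. Among G1 genes, cyclin E1 (Ccne1) fell from 66.7 and 84.6 to 33.4 and 33.8 RPM and cyclin D3 (Ccnd3) from 49.2 and 66.9 to 16.7 and 14.8 RPM, while the kinase gene Cdk6 rose from 5.39 and 8.83 to 29.1 and 31.3 RPM. Females held higher levels than males of Cdkn1c, at 54.1 and 68.0 RPM, and of Rb1, at 83.0 and 73.2 RPM.

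**Figure D4:**
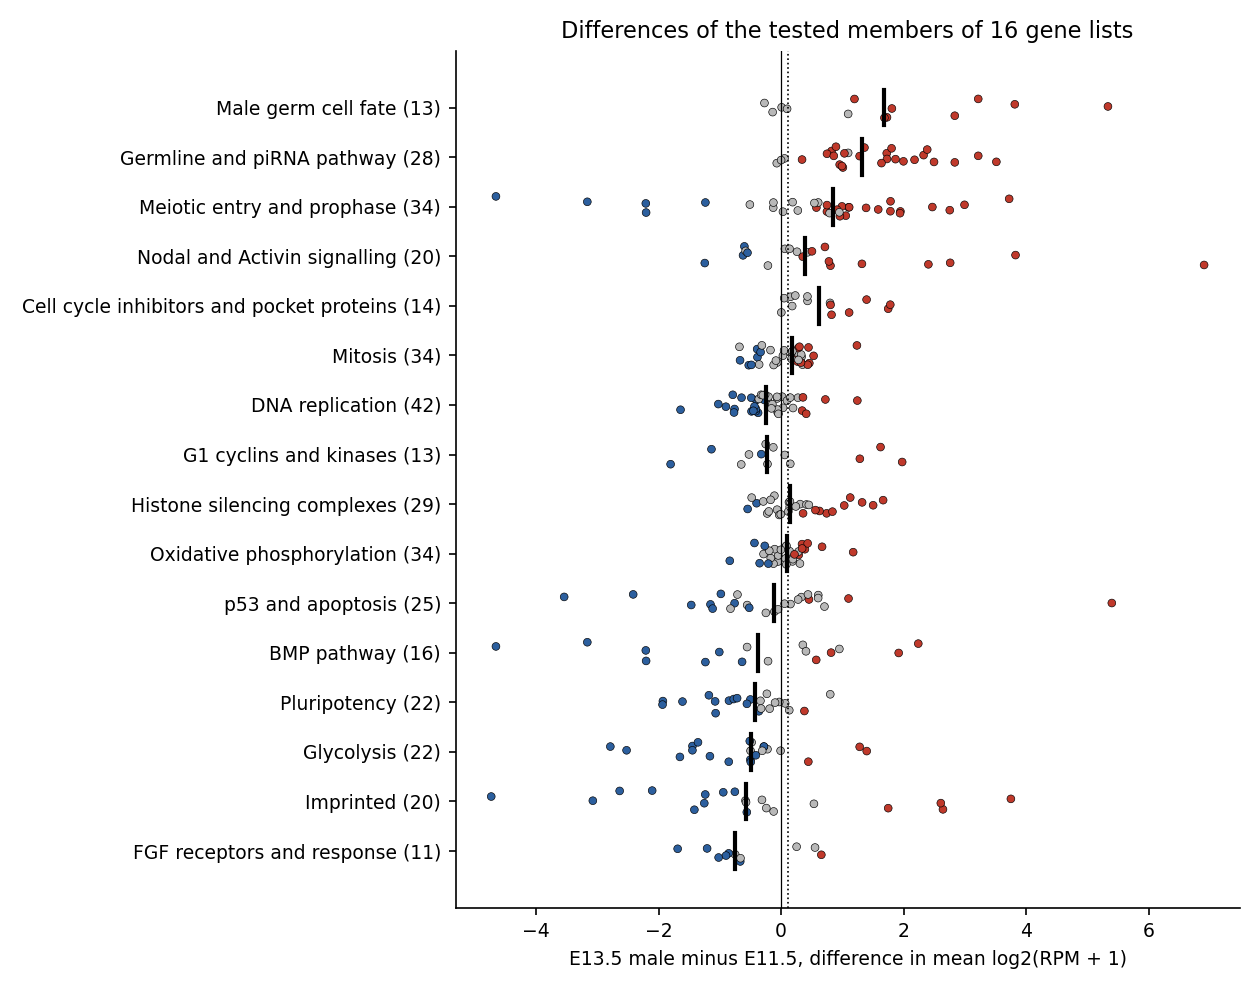
Difference in mean log2(RPM + 1), E13.5 male minus E11.5, for each tested member (point) of 16 gene lists, with the number tested in brackets, genes called higher in red, called lower in blue and the rest in grey. Thick bars are list medians and the dotted line is the median of all genes (0.11). The germline and male fate lists have no blue points, and the glycolysis, pluripotency and FGF lists lie mostly left of 0.

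Most glycolysis genes fell. Of 22 tested, 14 fell and 3 rose (1 without male replicate 2), against 15.9% and 22.3% of all genes, with a median of -0.50, and the summed level went from 7570 and 7650 RPM at E11.5 to 5290 and 4950 RPM in males. Hk1, the first enzyme of the pathway, fell from 67.3 and 65.5 to 10.4 and 7.40 RPM (-2.79 ± 0.23) and Ldha, which makes lactate, from 103 and 99.6 to 16.4 and 17.3 RPM (-2.52 ± 0.14). Gapdh fell from 2284 and 2533 to 1419 and 1246 RPM and the glucose transporter gene Slc2a3 from 189 and 207 to 85.2 and 68.7 RPM. Ldhb, the other lactate dehydrogenase subunit, rose from 43.1 and 47.5 to 109 and 114 RPM. In females Ldha was at 86.6 and 81.1 RPM and Ldhb at 27.4 and 35.4 RPM, so the pair differed between the sexes as well (adjusted p = 3.95e-13 and 4.38e-09 by limma). The list as a whole was lower still in females, with a summed level of 3880 and 3760 RPM. Against females, 9 of the 22 were higher in males and 5 lower (16.4% and 21.2% of all genes). Of 34 genes of oxidative phosphorylation 8 rose and 5 fell (4 and 8 with median-ratio scaling, and 3 to 5 rose without any 1 of the 4 libraries), shares near the 22.3% and 15.9% of all genes, and their summed level was 16300 and 16500 RPM at E11.5 and 16700 and 16800 RPM in males.

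Imprinted genes, which are normally read from the copy of 1 parent, moved in both directions. Of 20 tested, 10 fell and 4 rose, against 15.9% and 22.3% of all genes. Beside Phlda2, its neighbour Slc22a18 fell from 8.76 and 8.83 to 0 and 0.352 RPM and the growth factor gene Igf2 from 28.3 and 25.9 to 4.34 and 2.82 RPM. Mest rose from 22.9 and 21.4 to 149.96 and 137 RPM (2.64 ± 0.18) and Ascl2, a trophoblast factor gene, from 6.73 and 0.285 to 38.7 and 44.4 RPM, with the 2 E11.5 libraries far apart. Phlda2 was at 558 and 508 RPM and Igf2 at 80.9 and 75.1 RPM in females, above both other groups, while Mest was at 22.6 and 29.9 RPM. The allele of origin was not measured.

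Other regulators changed gene by gene. The counts that follow stand against 15.9% falling and 22.3% rising over all genes. Among p53 and apoptosis genes 8 of 25 fell and 3 rose, and 5 fell without E11.5 replicate 1. Trp53 fell from 229 and 264 to 107 and 113 RPM, Perp, a p53 target of cell junctions, from 29.6 and 23.6 to 0.334 and 3.17 RPM, and the BH3-only gene Bad from 27.6 and 34.2 to 5.34 and 4.58 RPM, opposite to Pmaip1. Among DNA methylation genes 5 of 15 fell and 3 rose, and without male replicate 2 the numbers were 2 and 1. Gadd45a, a stress gene also linked to demethylation, fell from 65.3 and 52.7 to 5.68 and 3.87 RPM (-3.39 ± 0.22), and the dioxygenase gene Tet1 rose from 88.9 and 75.4 to 127 and 117 RPM, a call lost without E11.5 replicate 2, without male replicate 1 or with no variance trend. Among histone silencing genes 10 of 29 rose and 2 fell, or 1 without E11.5 replicate 1 or male replicate 2. The demethylase gene Kdm5b rose from 46.5 and 31.6 to 129 and 119 RPM, the H3K9 methyltransferase gene Ehmt2 from 100.3 and 84.3 to 165 and 165 RPM, and Mga, a MAX partner of a Polycomb complex that represses germline genes, from 25.6 and 30.5 to 61.5 and 54.9 RPM.

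Genes on chromosome X formed a smaller share of the RNA in males. X-linked genes summed to 3.42% and 3.46% of RPM at E11.5, 2.93% and 2.8% in males and 4.58% and 4.60% in females. Of 408 tested X-linked genes 87 rose and 109 fell since E11.5, that is 21.3% and 26.7%, where single autosomes had 12.5% to 20.6% falling. The median X-linked difference was -0.046 against E11.5, where autosomes ranged from -0.025 to 0.25. It was -0.69 against females, where autosomes ranged from -0.11 to 0.11. Against females 224 X-linked genes (54.9%) were lower in males and 19 higher, where 21.2% and 16.4% of all genes were. Since sex and age cannot be told apart at E11.5, the comparison by age of these genes mixes both. Rhox6, Rhox9, Tmsb4x and Porcn, among the largest falls, lie on this chromosome.

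**Figure D5:**
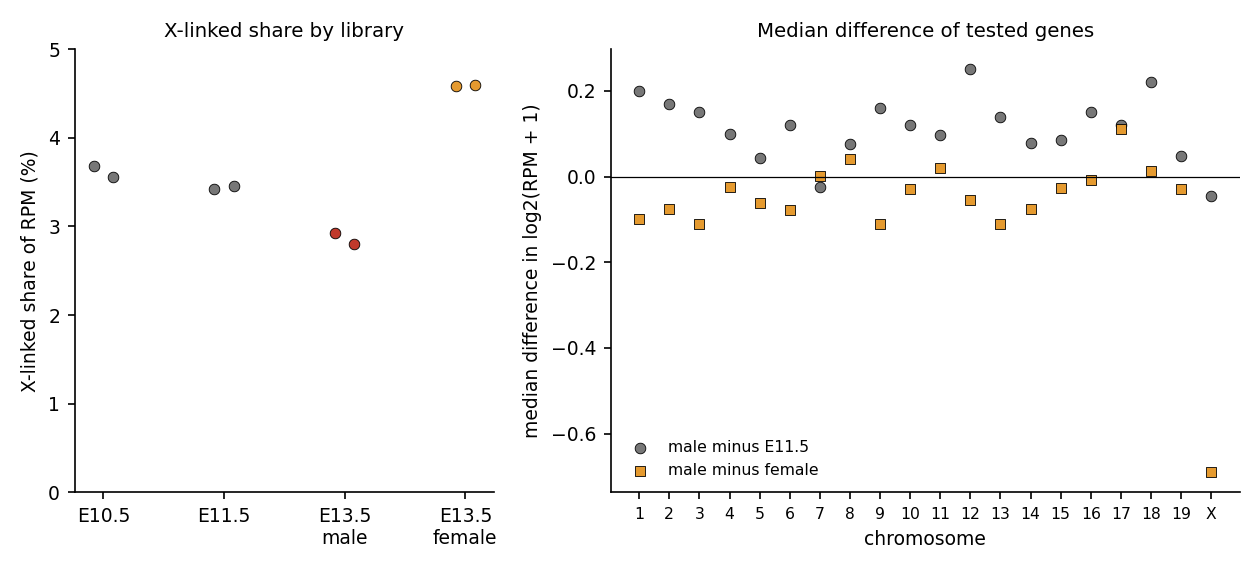
Left, share of RPM from X-linked genes in each of the 8 wild-type libraries, with 2.8% to 2.93% in males and 4.58% to 4.60% in females. Right, median difference of the tested genes of each chromosome for male minus E11.5 (circles) and male minus female (squares), where X lies at -0.046 and -0.69.

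Markers of other gonadal cells were measured beside these results. Counts of rises and falls in this paragraph, including those of the stress genes, stand against 22.3% rising and 15.9% falling over all genes. Of 13 Sertoli cell markers 5 were tested, of which 3 rose, Cst9 to 16.7 and 13.7 RPM, Defb19 to 8.68 and 12.7 RPM and Ptgds to 11.4 and 5.63 RPM from 0 in both E11.5 libraries, and 1, Nr0b1, fell. The 3 that rose could not have fallen from 0, and their male levels alone passed the filter of 5 RPM. The count of rises is therefore partly set by the filter. The defining markers were near or at 0, with Sox9 at 2.34 and 1.41 RPM and Amh at 0 and 0 RPM in males. The Sertoli list summed to 51.2 and 70.6 RPM at E11.5 and to 77.8 and 64.8 RPM in males, so these sums overlapped although single members rose and fell. In females it summed to 28.2 and 24.7 RPM. Between the sexes, 4 of the 5 tested were higher in males and 0 lower (16.4% and 21.2% of all genes). The filter, passed by male levels alone in Cst9, Defb19 and Ptgds, bears on this count too. Dhh, another Sertoli gene, was at 5.01 and 1.06 RPM. The part of Sertoli RNA in the rises of genes with low male levels, or in their excess over females, was not tested. Gonadal somatic markers summed to 22.9 and 31.9 RPM at E11.5 and 49.8 and 41.6 RPM in males. Mesonephric epithelium markers went the other way, from 71.4 and 78.6 RPM to 21.0 and 25.7 RPM, with 4 of 5 tested genes falling. Cldn7 and Krt18 belong to that list, and the part of epithelial cells in the falls of Dsp, Elf3 and Cldn7 was not tested. Endothelial markers summed to 39.1 and 44.1 RPM at E11.5 and 21.4 and 19.7 RPM in males, and macrophage markers to at most 7.97 RPM in any of the 4 libraries. Of the fetal Leydig cell markers 1 of 3 tested fell, or 2 without male replicate 2 (Insl3, from 62.6 and 80.7 to 8.02 and 10.6 RPM), and of the pre-granulosa markers 1 rose (Rspo1) and 1 fell (Irx3, a call lost without E11.5 replicate 1) of 2 tested. Erythroid markers summed to 16.8 and 7.12 RPM at E11.5 and 11.0 and 8.45 RPM in males. Of 13 immediate early and stress genes, which respond to cell handling among other stimuli, 3 rose and 2 fell, or 1 without male replicate 2.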

How the data were processed

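The deposited table for wild-type cells holds RPM values for 26219 mouse genes and 92 ERCC spike-in rows, which were left out. Per the submitters' processing notes, cutadapt 1.3, TopHat 1.4.1 and Cufflinks 2.2.0 were used with mm10. Per the labels, the libraries were 3′ RNA-seq from 1 ng of RNA with PCR amplification, without length correction. Differences in log2(RPM + 1) were computed here with limma 3.58.1 in R 4.3.3, with the mean-variance trend, over the 8 wild-type libraries (residual df 4), for the 10749 genes with at least 5 RPM in at least 2 libraries. P-values were adjusted by Benjamini-Hochberg over these genes and called under 0.05. Between 99.61% and 99.75% of low values were whole reads within 0.05 of a read, which gave the depth.

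The members and the 32 gene lists were chosen with earlier results of these data known. Genes were named by rule: Lefty1, Lefty2, Hesx1 and Prdm1, the 12 largest rises and 12 largest falls with a mean of at least 10 RPM and no overlap of groups, up to 4 members per list with the smallest p, and the 10 highest and 10 lowest in males against females. Other list members were named for their roles after their values were seen. Other pseudocounts, filters, scalings, weights, a replicate block and leaving out libraries were tried. Positions and promoters are RefSeq's for GRCm38.p6, and 101 of 136 named genes had a promoter. Y-linked genes and the libraries with the Prdm1 deletion were not analysed here.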

Additional observations from a re-analysis of the deposited data

Results flagged for a closer look

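Lefty1, Lefty2, Prdm1, the 12 largest rises, Hesx1 among them, and the 12 largest falls were also compared between E13.5 males and E13.5 females. All of them but Prdm1 and Lck differed, which makes 25 genes. Other named genes are not counted here. The test is the limma contrast of E13.5 males and females, and each had an adjusted p under 0.05, as did 37.6% of all genes. The rises and falls were picked by their values in the same male libraries, so this count is not independent of that choice. Hesx1 and Nanos2 passed the filter through the male libraries only. Males exceeded females on the log2(RPM + 1) scale for 14 of the 25, in both male libraries against both female libraries. The Nodal targets were Lefty1 with a male minus female difference of 7.31, Lefty2 with 6.91 and Hesx1 with 6.22. The other male-high genes were Bnc2 (2.90), Egr4 (3.82), Pmaip1 (5.67), Nanos2 (5.20), Plk5 (3.04), Fbxo41 (3.81), Pou6f1 (3.27), Rasd2 (1.99), Aldh1a1 (3.66), Mgst2 (4.64) and Krt17 (4.44). Since the E11.5 libraries have no sex label, a difference present before E13.5 cannot be told apart from one that arose later. Where the female libraries are at or near 0, as for Lefty1, Lefty2, Hesx1, Pmaip1, Mgst2, Krt17 and Nanos2, these values and their order depend on the pseudocount and are no measure of fold.

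Males stood below females for 11. The BMP target Msx2 (-5.46), the imprinted gene Phlda2 (-6.44) and the epithelial genes Dsp (-4.42), Elf3 (-2.69) and Cldn7 (-2.43) also stood higher in females than in males. The X-linked genes were Rhox6 (-4.09), Rhox9 (-3.60), Porcn (-3.91) and Tmsb4x (-2.54). The metallothionein genes Mt2 (-2.01) and Mt1 (-1.28) were below their E11.5 level in both sexes, at 50.6 and 54.5 RPM and 8.99 and 12.3 RPM in females. Lck, the other gene among the 12 largest falls, was not called between the sexes, at 2.004 and 1.41 RPM in males and 2.72 and 4.39 RPM in females (adjusted p = 0.0612, limma).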

How the results depend on the processing

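Among 2079 values of 131 named genes under the alternatives, 2018 kept their direction and side of the threshold, 53 lost the call, 8 gained it and 0 reversed. For males against females the numbers were 584 of 589, 0, 5 and 0. Requiring at least 2-fold on top of the adjusted p left 1804 genes against E11.5 (999 higher, 805 lower) and 1844 against females (660 higher, 1184 lower). Leaving out 1 library gave 2853 to 3739 called genes against E11.5, with 1574 to 2262 higher and 1279 to 1501 lower. Against females it gave 2708 to 3015, with 1182 to 1305 higher and 1459 to 1710 lower, where the lower counts without female replicate 1 and without female replicate 2 were 1507 and 1459 against 2280 with all libraries. The remaining sample of such a group is assumed to vary like the other groups, and fewer samples were fitted. With median-ratio scaling 49.9% of the called genes were higher than at E11.5, against 58.3% as deposited. Replicates 1 and 2 share numbers across groups, but the correlations of their differences lay between -0.031 and 0.033. Libraries of the same number thus showed no shared deviation, though such a correlation cannot tell whether they share a litter or a day of collection. With the replicate block 4160 genes were called against E11.5 and 4099 against females. The planned quasi-likelihood test on recovered reads was not run, because some recovered values were not whole. In its place limma voom on reads rounded to whole numbers, chosen after seeing the data, called 4197 and 4803. Depth limits genes near 3 reads, 0.854 to 2.02 RPM, and with 2 libraries a group small differences can be missed.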
